A study of Homo sapiens with 24 samples.

Results

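MDA-MB-231 cells whose genome had doubled by cell fusion were compared with MDA-MB-231 cells whose genome had doubled by mitotic slippage, across all genes that could be tested. The comparison rests on 6 of the 24 libraries of the series, 3 of fusion and 3 of slippage. MDA-MB-231 is an established line of triple-negative breast cancer with mesenchymal features and an aneuploid genome. Per the labels, both populations were made from the same parental aneuploid cells, were sorted by flow cytometry after doubling and were then expanded, so that each is 1 derived population and route and population cannot be told apart. RNA was taken 48 hours after seeding into plates, with no further treatment, and was read by TAGseq, which sequences the 3′ end of polyadenylated transcripts. The parental control (3 libraries) is used as a common baseline, and the same 2 routes in HCC1806, a basal epithelial line of triple-negative breast cancer, are used to show where MDA-MB-231 differs.

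Whole-genome doubling by fusion joins the nuclei and cytoplasm of separate cells, whereas in mitotic slippage a single cell leaves a prolonged mitosis without dividing and keeps its replicated chromosomes. Both give tetraploid cells with extra centrosomes, and such cells often lose or gain chromosomes as they grow out. Prolonged mitosis is known as a trigger of p53, of the cell cycle inhibitor p21 and of inflammatory signalling.

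Fusion libraries held 3159335 to 3380043 estimated counts and slippage libraries 3290703 to 3800583, spread over 14471 to 14850 genes. When replicates were compared in pairs, the ratio of chi-square to its degrees of freedom was 1.39 to 1.87 among fusion libraries and 1.55 between slippage replicates 1 and 2, while slippage replicate 3 stood further apart, at 2.26 and 2.43. Without that library 1824 genes were called, in place of the 1953 given next. The mesenchymal identity genes of the line summed to 6381 to 6740 CPM (counts relative to library size after TMM scaling) in fusion and 6017 to 6370 CPM in slippage, so that the genes of the labelled line were abundant in both populations. Of these 10 genes 9 were tested, of which 3 were higher and 2 lower in fusion (55.6% called), TGFBI among the lower ones. Markers of other cell types were low: of 12 immune, 9 fibroblast and 7 endothelial markers, the macrophage and lysosome gene CD68 and the endothelial gene PECAM1 alone were abundant enough to be tested, and 6, 3 and 3 of them were at 0 in all 6 libraries.

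Of 11424 genes tested, 1953 (17.1%) were called, meaning an edgeR quasi-likelihood test with a Benjamini-Hochberg adjusted p below 0.05. In fusion 1039 of them (9.09% of the genes tested) were higher and 914 (8.0%) were lower than in slippage. In bulk RNA, fewer cells of a type and less RNA per cell cannot be told apart. Most differences were small: 185 called genes differed by at least 2-fold, 44 of them higher and 141 lower in fusion. In 1860 of the 1953 called genes all 3 fusion libraries lay on one side of all 3 slippage libraries. Genes picked for a small p tend to separate in this way, and the share over all genes tested is not given. The count therefore adds no support to the calls. The median log2 fold change of all genes tested was 0.00. On log2(TPM + 1), with limma, 308 genes were higher and 1130 lower, and the median of all genes was -0.08 there, so that the balance of directions depended on the scaling. No named gene changed direction between the settings tried. Shares of list members called are to be read beside the 17.1% of all genes tested. Fold changes below are log2 values of fusion over slippage with their standard error after ±, levels are CPM in fusion replicates 1, 2 and 3 and then in slippage replicates 1, 2 and 3, and rose, fell, higher and lower refer to fusion relative to slippage.

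Among the genes that rose most in fusion were those of a secreted cytokine, a collagenase and a cancer-testis antigen. IL24, a cytokine of the interleukin 10 family, stood at 16.4, 16.4 and 14.6 CPM in fusion and 2.73, 4.17 and 4.21 CPM in slippage (2.07 ± 0.25, adjusted p = 3.31e-08). MMP1, the interstitial collagenase, had 21.3, 19.8 and 18.3 CPM in fusion and 8.2, 3.65 and 6.02 CPM in slippage (1.75 ± 0.23, adjusted p = 2.04e-07). The fusion libraries were all high and no library of one group entered the range of the other for either gene. In the controls MMP1 was at 1.15, 1.56 and 1.35 CPM, so that both doubled populations lay above the parental cells, fusion by 3.84 ± 0.30 (adjusted p = 9.52e-13) and slippage by 2.09 ± 0.38 (adjusted p = 0.000273), 2 comparisons that share their control libraries. SPANXB1, a cancer-testis antigen encoded on the X chromosome with near-identical copies beside it, had 273, 256 and 279.5 CPM in fusion and 102, 102 and 91.2 CPM in slippage (1.45 ± 0.072, adjusted p = 6.94e-19). Which copy the reads came from is uncertain.

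Further genes with large rises were APBB1IP (1.51 ± 0.15), which links the GTPase Rap1 to integrin activation, the immunoglobulin M receptor FAIM3, now FCMR (1.51 ± 0.22), the protease inhibitor cystatin CST6 (1.39 ± 0.18), the nuclear protein AFF3 (1.63 ± 0.32), the synaptic vesicle scaffold RIMS2 (1.72 ± 0.31), the LIM domain protein FHL1 (1.37 ± 0.33), the FERM domain protein FRMD3 (1.34 ± 0.33), the adrenomedullin-like peptide ADM2 (1.34 ± 0.35) and the unnamed locus LOC102723721 (1.62 ± 0.17). Their adjusted p ran up to 0.00554, that of ADM2. The abundant genes with the smallest p rose by less. G0S2, an inhibitor of triglyceride lipolysis, had 277, 255 and 272 CPM in fusion and 149.5, 130.4 and 146 CPM in slippage (0.92 ± 0.064, adjusted p = 2.26e-14). The ferritin light chain FTL, which stores iron, had 2784, 2713 and 2643 CPM in fusion and 1888, 1840 and 1795 CPM in slippage (0.56 ± 0.041, adjusted p = 6.18e-14). Both genes were tight within a group, and the groups did not overlap. CCND2, the D-type cyclin that drives entry into S phase, had 16.4, 21.6 and 17.7 CPM in fusion and 8.51, 6.51 and 9.33 CPM in slippage (1.20 ± 0.20, adjusted p = 2.5e-05), against 3.73, 5.01 and 3.52 CPM in the controls.

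Genes that fell most in fusion encoded matrix proteins, adhesion molecules and secreted ligands. ADAMTS9, a metalloproteinase that cleaves proteoglycans, had 1.64, 1.82 and 1.86 CPM in fusion and 13.4, 10.4 and 6.62 CPM in slippage (-2.49 ± 0.33, adjusted p = 3.05e-07). MFAP2, a component of elastic microfibrils, stood at 1.97, 2.74 and 1.86 CPM in fusion and 10.6, 10.2 and 8.42 CPM in slippage (-2.13 ± 0.30, adjusted p = 8.44e-07). Fusion was the low group in both, and for MFAP2 the controls, at 8.9, 8.13 and 10.3 CPM, lay beside slippage. ICAM1, the adhesion molecule that binds leukocyte integrins, had 8.2, 6.08 and 5.89 CPM in fusion and 24.9, 25.2 and 22.6 CPM in slippage (-1.85 ± 0.19, adjusted p = 7.07e-10). The controls were between the 2 populations, with ICAM1 at 13.5, 16 and 12.7 CPM, so that fusion lay -1.06 ± 0.21 from control (adjusted p = 0.000243) and slippage 0.79 ± 0.16 (adjusted p = 0.00084). The cholesterol exporter ABCA1 had the same order, at 4.59, 8.21 and 5.58 CPM in fusion, 21.6, 23.2 and 26.8 CPM in slippage and 12.9, 10.6 and 12.7 CPM in control (fusion over slippage -1.94 ± 0.20, adjusted p = 1.09e-09). EREG, epiregulin, a ligand of the EGF receptor, had 20, 19.2 and 19.2 CPM in fusion and 57.7, 62.2 and 66.5 CPM in slippage (-1.67 ± 0.12, adjusted p = 2.85e-14).

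Others that fell strongly were the zinc finger gene ZNF467 (-1.83 ± 0.34), KIAA1644, now SHISAL1 (-1.72 ± 0.24), the calcium-binding protein S100P (-1.64 ± 0.29), the coxsackievirus and adenovirus receptor CXADR (-1.63 ± 0.25), the protein kinase A inhibitor PKIB (-1.62 ± 0.26) and the trefoil factor TFF3 (-1.59 ± 0.25). Of the genes with the smallest p, the matrix glycoprotein fibronectin FN1 stood at 55.4, 62.1 and 66.1 CPM in fusion and 147, 155 and 162 CPM in slippage (-1.33 ± 0.076, adjusted p = 4.89e-17). The heparin-binding growth factor midkine, MDK, had 49.8, 42 and 48.1 CPM in fusion and 104, 122 and 114 CPM in slippage (-1.29 ± 0.087, adjusted p = 7.71e-15). The membrane protein TMEM158, first described as induced by RAS, had 253, 266 and 290.4 CPM in fusion and 502, 475 and 484 CPM in slippage (-0.85 ± 0.053, adjusted p = 7.01e-16). In each of these 3 genes the groups lay far apart relative to their spread. MDK and TMEM158 in slippage were near the controls, with MDK at 115, 119 and 119.5 CPM and TMEM158 at 451, 443 and 463 CPM there, whereas FN1 in the controls, at 98.5, 109.8 and 99.7 CPM, was between fusion and slippage.

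**Figure D1:**
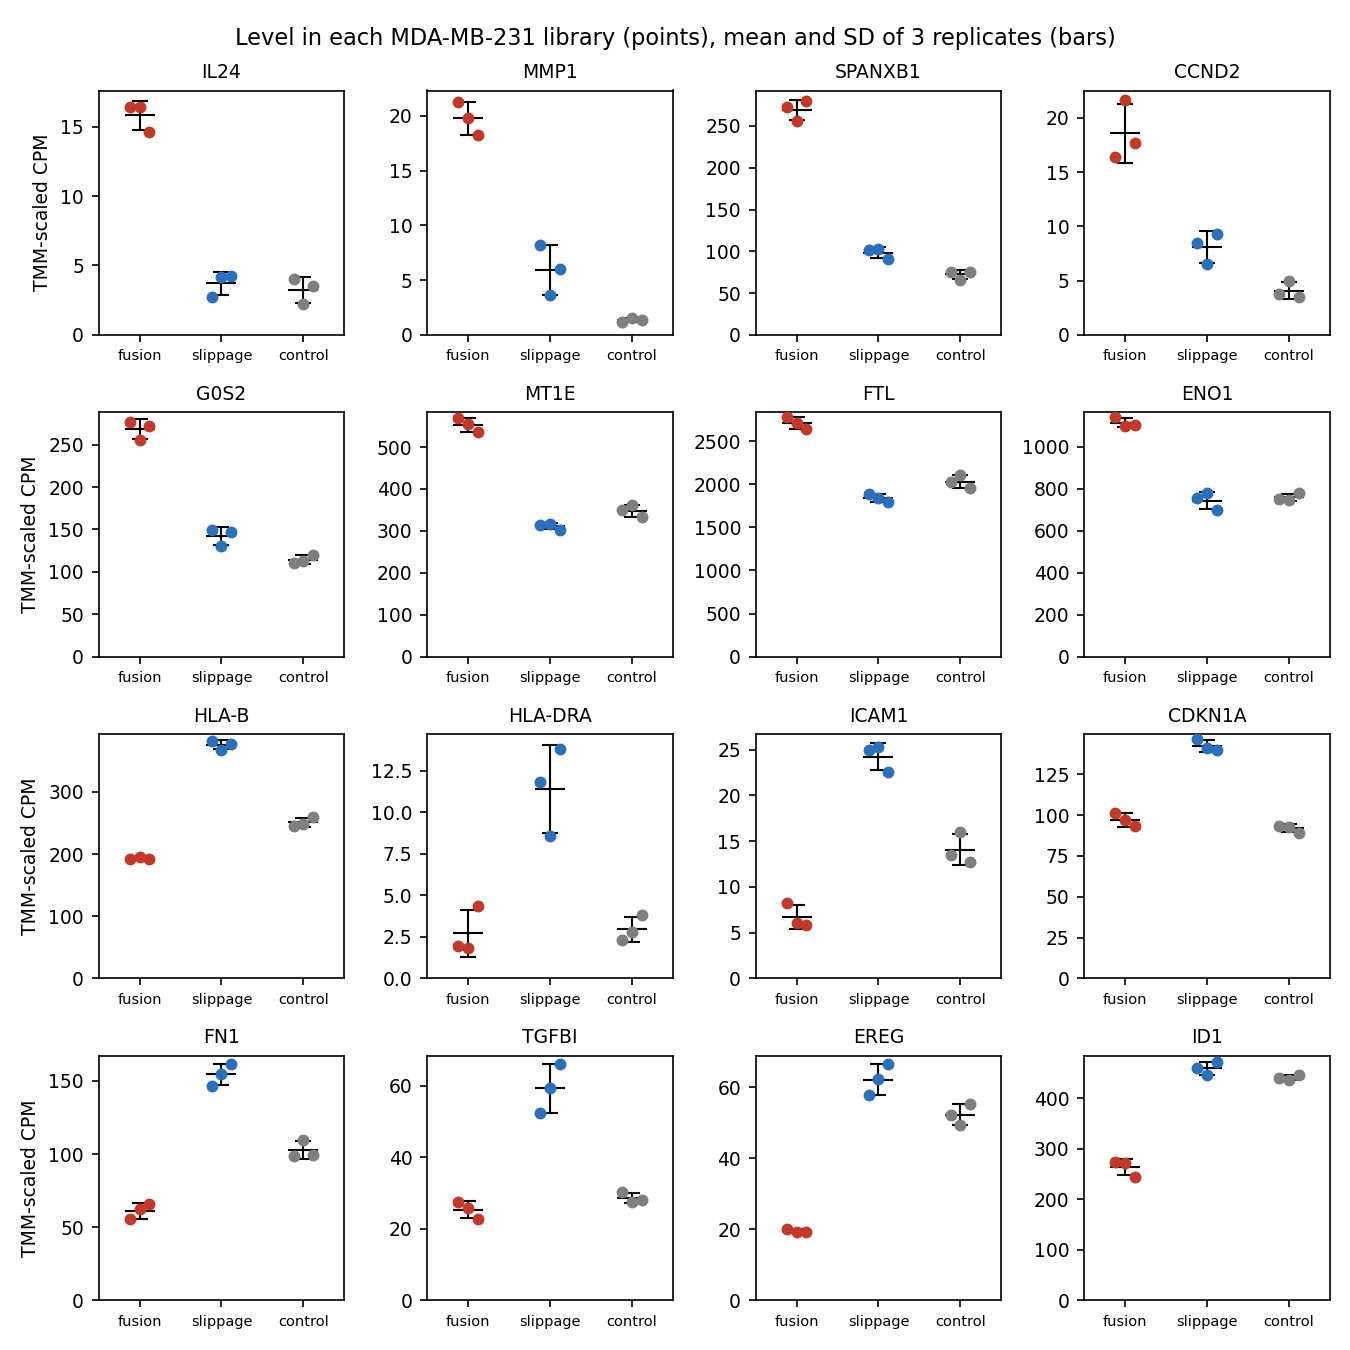
Level in TMM-scaled CPM (vertical axes, from 0) of 16 genes in each library of fusion (red), slippage (blue) and control (grey); points are libraries, and bars show the mean and SD of 3 replicates. In the first 8 panels all fusion libraries lie above all slippage libraries, and in the last 8 all lie below. HLA-DRA, CDKN1A and TGFBI in slippage stand above both fusion and control, which lie close to each other. HLA-B, ICAM1 and FN1 in slippage also stand above both, with control between slippage and fusion.

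Metallothioneins, small cysteine-rich proteins that bind zinc and copper and whose genes lie side by side on chromosome 16, were higher in fusion. Of 7 genes of this list that were tested (12 metallothionein genes and their regulator MTF1, grouped after their values were seen), 5 rose and 1 fell (85.7% called). MT1E had 568, 555 and 535 CPM in fusion and 315, 316 and 303 CPM in slippage (0.83 ± 0.052, adjusted p = 8.75e-16). MT2A, the most abundant by count, had 1733, 1680 and 1602 CPM in fusion and 1278, 1271 and 1149 CPM in slippage (0.44 ± 0.047, adjusted p = 6.31e-09). MT1X stood at 200, 187 and 196 CPM in fusion and 146, 146 and 129.7 CPM in slippage (0.47 ± 0.067, adjusted p = 1.41e-06). The fusion libraries were the high ones for all 3 genes, with no overlap. MT1F (1.21 ± 0.28) and MT1A (0.82 ± 0.21) rose as well, and MT1M (-1.11 ± 0.59, adjusted p = 0.202) was not called. MTF1, the zinc-sensing transcription factor that activates these genes, was the member that fell (-0.57 ± 0.16, adjusted p = 0.0116). These genes are near-identical in parts and reads may be shared among them.

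Promoters of 2 of the 5 metallothioneins that rose were found in the RefSeq table of build GRCh38.p14, each from 250 bases before to 50 bases after the start of the gene, and are shown because metallothionein promoters are known to carry repeated metal response elements, the sites of MTF1. Capitals mark the core letters TGCACNC or TGCGCNC on either strand. MT1X, at chr16:56682220-56682519 on the plus strand, held 4 cores and MT2A, at chr16:56608334-56608633 on the plus strand, held 8.
MT1X: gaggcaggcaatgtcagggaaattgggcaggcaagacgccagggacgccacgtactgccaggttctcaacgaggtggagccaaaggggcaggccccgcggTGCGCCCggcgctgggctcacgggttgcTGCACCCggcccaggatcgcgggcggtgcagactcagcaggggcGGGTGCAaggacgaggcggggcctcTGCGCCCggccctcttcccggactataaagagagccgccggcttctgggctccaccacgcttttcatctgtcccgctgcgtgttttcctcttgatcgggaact
MT2A: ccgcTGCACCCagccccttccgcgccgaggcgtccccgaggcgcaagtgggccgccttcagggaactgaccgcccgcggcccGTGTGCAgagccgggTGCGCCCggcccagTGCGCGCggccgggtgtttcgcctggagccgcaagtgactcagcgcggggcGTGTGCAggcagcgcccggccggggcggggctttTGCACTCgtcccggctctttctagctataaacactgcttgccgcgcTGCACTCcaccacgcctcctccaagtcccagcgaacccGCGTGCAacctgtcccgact
At least 1 core was present in 29.3% of the 27305 promoters of the table and at least 4 in 0.593%, counted over both strands with overlaps allowed. A match is a description of letters and not a measured site.

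Antigen presentation genes, where called, were lower in fusion. Class I molecules of the major histocompatibility complex (MHC) display peptides of the cell on its surface. Of 17 tested genes of class I and of peptide loading 0 rose and 8 fell (47.1% called, median -0.29). HLA-B had 193, 195 and 193 CPM in fusion and 383, 368 and 378 CPM in slippage (-0.96 ± 0.054, adjusted p = 3.67e-17). In the controls HLA-B stood between them, at 246, 248 and 259.8 CPM, with fusion -0.38 ± 0.055 (adjusted p = 2.04e-06) and slippage 0.58 ± 0.052 (adjusted p = 2.08e-10) from control. HLA-C (-0.47 ± 0.064) and the immunoproteasome subunit PSMB8 (-0.55 ± 0.092) fell too, with adjusted p of at most 2.26e-05. HLA genes vary between people and are alike among themselves, so that their counts depend on how reads were assigned.

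Class II genes, which antigen-presenting cells use to show peptides taken up from outside, followed in a group put together after HLA-DRA had been named. Of 9 tested genes 0 rose and 4 fell (44.4% called), with a median of -0.70. HLA-DRA, the alpha chain of HLA-DR, had 1.97, 1.82 and 4.34 CPM in fusion, 11.8, 8.59 and 13.8 CPM in slippage and 2.3, 2.82 and 3.79 CPM in control (fusion over slippage -2.04 ± 0.31, adjusted p = 3.21e-06). Fusion and control shared a low level and slippage alone was high. HLA-DPB1 (-3.04 ± 0.42) and HLA-DPA1 (-2.88 ± 0.51) showed the largest falls of the group at very low levels, from 0.328 to 1.22 CPM in fusion and from 3.65 to 10.2 CPM in slippage. The invariant chain CD74, the chaperone of class II molecules, had 28.9, 27.1 and 30.7 CPM in fusion, 43.8, 47.6 and 51.4 CPM in slippage and 24.1, 20 and 19.8 CPM in control (-0.72 ± 0.12, adjusted p = 1.04e-05). Against control, slippage was higher by 1.16 ± 0.12 (adjusted p = 8.59e-09) and fusion by 0.44 ± 0.13 (adjusted p = 0.0183). The class II activator CIITA was not called (-0.42 ± 0.36, adjusted p = 0.466). Immune cells are the usual carriers of class II. Their 12 markers summed to 94.4 to 113 CPM in fusion, 112.5 to 116 CPM in slippage and 71.2 to 80.4 CPM in control, almost all of it CD68. PTPRC, which encodes CD45, was at most 0.310 CPM in fusion and at most 0.304 CPM in slippage. CD163, CD3E, MS4A1, NKG7 and TYROBP were at 0 in all 6 libraries. CD68 had 90.5, 99.5 and 109.5 CPM in fusion and 110, 109 and 111 CPM in slippage (adjusted p = 0.225), and its part in these results was not tested.

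Interferon-stimulated genes, where called, were lower in most cases, with 2 of 42 tested members higher and 11 lower (30.95% called). Their median was -0.12, and -0.08 without slippage replicate 3 or on the 6 fusion and slippage libraries alone. The guanylate-binding proteins GBP2 and GBP1 are interferon-induced GTPases of cell-autonomous defence. GBP2 had 25.2, 17.6 and 28.9 CPM in fusion and 46.5, 47.9 and 46.3 CPM in slippage (-0.98 ± 0.14, adjusted p = 1.07e-06). GBP1 stood at 58, 54.1 and 57.7 CPM in fusion and 90.2, 83.3 and 79.7 CPM in slippage (-0.58 ± 0.085, adjusted p = 2.77e-06). IFIT2, which binds foreign RNA, fell by 0.52 on the log2 scale (adjusted p = 8.45e-06). The opposite held for BST2, tetherin, which holds enveloped virus particles at the cell surface, at 80.7, 99.2 and 96.8 CPM in fusion and 64.7, 62.5 and 47.8 CPM in slippage (0.66 ± 0.094, adjusted p = 1.41e-06). Its control level of 92.8, 91.4 and 94.3 CPM was near fusion. Of 15 tested NF-kB targets and inflammatory cytokines 1 rose (IL24) and 2 fell (20% called, near the 17.1% of all genes). Those that fell were ICAM1 and the feedback inhibitor NFKBIA (-0.29 ± 0.074, adjusted p = 0.00393). BIRC3 (-0.26 ± 0.11, adjusted p = 0.103) was not called.

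Transforming growth factor beta (TGF-beta) and bone morphogenetic proteins (BMP) are secreted factors that act through SMAD proteins. Their targets had a median of -0.49 over 23 tested genes, with 1 higher and 12 lower (56.5% called). COL4A1, a chain of basement membrane collagen, had 15.1, 11.6 and 10.2 CPM in fusion and 27, 33.6 and 34.9 CPM in slippage (-1.38 ± 0.15, adjusted p = 7.68e-09). The matrix protein TGFBI had 27.6, 25.9 and 22.6 CPM in fusion and 52.3, 59.4 and 66.2 CPM in slippage (-1.23 ± 0.12, adjusted p = 1.25e-10). Their relation to the parental cells differed, because TGFBI in the controls (30.2, 27.5 and 28.2 CPM) was near fusion while COL4A1 in the controls (26.7, 29.7 and 27.9 CPM) was near slippage. ID1, an inhibitor of differentiation and direct BMP target, stood at 275, 271 and 245 CPM in fusion, 461, 447 and 473 CPM in slippage and 440.3, 437 and 446 CPM in control (fusion over slippage -0.80 ± 0.052, adjusted p = 1.74e-15).

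Most called matrix and adhesion genes were lower in fusion as well. Of 22 tested collagens and collagen-modifying enzymes 0 rose and 8 fell (36.4% called, median -0.15). LOXL1, which cross-links elastin and collagen, had 8.2, 10.9 and 9.93 CPM in fusion and 29.5, 21.6 and 28 CPM in slippage (-1.43 ± 0.18, adjusted p = 6.29e-08). COL18A1 (-0.93 ± 0.11) and COL6A1 (-0.80 ± 0.088), neighbours near the end of chromosome 21, fell with adjusted p of 1.83e-08 and 4.49e-09. Among 26 integrins, laminins and other matrix adhesion genes 2 rose and 12 fell (53.85% called, median -0.20). The laminin receptor subunit ITGA6 had 348, 295 and 309 CPM in fusion and 426, 397 and 423 CPM in slippage (-0.39 ± 0.055, adjusted p = 1.25e-06). The collagen receptor subunit ITGA2 (-0.32 ± 0.049) and thrombospondin THBS1 (-0.49 ± 0.081) fell as well, each with no overlap between the groups. Of 14 mesenchymal genes 1 rose and 4 fell (35.7% called). Those that fell included FN1, the microfibril gene FBN1, with 14.8, 14.9 and 14 CPM in fusion and 32.2, 31 and 23.8 CPM in slippage (adjusted p = 1.96e-05), and the calcium-binding protein S100A4, with 805, 818 and 842 CPM in fusion and 1178, 1206 and 1266 CPM in slippage (-0.57 ± 0.043, adjusted p = 2.43e-13). VIM (0.04 ± 0.04) and the transcription factor ZEB1 (0.02 ± 0.058), which define the mesenchymal state of the line, were not called. Metalloproteinases, the plasminogen system and their inhibitors were split, with 2 higher, MMP1 among them, and 6 lower of 21 (38.1% called). Among the lower ones were the metalloproteinase inhibitor TIMP3 (-0.43 ± 0.05) and the membrane protease ADAM19 (-0.50 ± 0.10).

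Epithelial genes, of which MDA-MB-231 keeps few, were mostly lower where called. Of 20 tested 2 rose and 8 fell (50% called, median -0.29). Desmoplakin, DSP, which anchors intermediate filaments at desmosomes, had 26.6, 28 and 31 CPM in fusion, 39.8, 42.7 and 40.9 CPM in slippage and 25.6, 25.3 and 26 CPM in control (fusion over slippage -0.53 ± 0.12, adjusted p = 0.00178), with slippage alone raised. The protease inhibitor SPINT2 (-0.31 ± 0.06) and the keratins KRT7 (-0.24 ± 0.055) and KRT19 (-0.25 ± 0.055) fell by less. Among 19 tested S100 proteins and annexins 2 rose and 6 fell (42.1% called). ANXA5 (0.33 ± 0.047), which binds phosphatidylserine, was among those that rose, and S100P, S100A4 and S100A2 were among those that fell. S100A2 stood at 227, 230 and 245 CPM in fusion and 360.4, 359 and 377 CPM in slippage (-0.64 ± 0.055, adjusted p = 8.93e-12).

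Notch signals between touching cells. Of 9 tested Notch pathway genes 1 rose and 5 fell (66.7% called, median -0.28). The glycosyltransferase LFNG, which tunes the response of Notch to its ligands, had 18, 17 and 16.8 CPM in fusion and 36.5, 34.9 and 41.2 CPM in slippage (-1.11 ± 0.13, adjusted p = 1.83e-08). The ligand JAG1 (-0.41 ± 0.073) and the target HES1 (-0.51 ± 0.075) fell, while RBPJ, the DNA-binding partner of Notch, rose (0.42 ± 0.064, adjusted p = 4.15e-06). In the Wnt list 0 of 24 tested genes rose and 6 fell (25% called, against 17.1% of all genes, median -0.18). LGR5 (-3.29 ± 0.46) and LGR4 (-0.59 ± 0.087) are receptors for R-spondins, which amplify Wnt signals, WNT5A (-2.43 ± 0.53) is a ligand and FZD8 (-0.84 ± 0.19) a receptor. LGR5 had 0.656, 0.304 and 0.931 CPM in fusion and 5.47, 7.81 and 6.02 CPM in slippage, so that it was nearly lost from fusion while the controls, at 6.61, 3.75 and 6.5 CPM, resembled slippage. Among 10 EGF receptor family genes and ligands 30% were called. ERRFI1, a feedback inhibitor of the receptor, rose, at 194, 187 and 181 CPM in fusion and 103, 95 and 108 CPM in slippage (0.88 ± 0.069, adjusted p = 5.3e-13). The ligands EREG and AREG (-0.28 ± 0.071, adjusted p = 0.00362) fell. Without fusion replicate 1 the AREG call was lost (adjusted p = 0.0835). EGFR missed the threshold (0.27 ± 0.10, adjusted p = 0.0506) but passed it in 5 of the 16 other settings, with adjusted p from 0.0323 to 0.0496.

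Most called amino acid stress and chaperone genes were higher in fusion. ATF4 is a transcription factor of the integrated stress response that raises amino acid synthesis and uptake. Of 32 tested genes of the unfolded protein response and ATF4 12 rose and 2 fell (43.75% called, median 0.21). SLC7A11, the cystine importer that feeds glutathione synthesis, had 177, 186 and 174 CPM in fusion and 121, 103 and 106 CPM in slippage (0.70 ± 0.073, adjusted p = 1.19e-09). Asparagine synthetase, ASNS, stood at 76.4, 59.3 and 65.8 CPM in fusion and 42.9, 38 and 38.5 CPM in slippage (0.75 ± 0.11, adjusted p = 1.16e-06). PSAT1 of serine synthesis (0.48 ± 0.072) and the disulfide isomerase PDIA6 (0.44 ± 0.058) rose likewise, with no overlap of the groups in any of the 4 genes. Against the controls SLC7A11 lay on opposite sides, fusion at 0.24 ± 0.07 (adjusted p = 0.0123) and slippage at -0.46 ± 0.073 (adjusted p = 3.65e-05). Of 25 chaperones 10 rose and 1 fell (44% called, median 0.10). The stress-inducible HSPA1A, which has a near-identical neighbour, had 34.4, 32.9 and 28.2 CPM in fusion and 15.2, 16.9 and 19.9 CPM in slippage (0.88 ± 0.15, adjusted p = 1.96e-05). HSPA9 of mitochondria (0.40 ± 0.048) and the chaperonin subunits CCT7 (0.47 ± 0.071) and CCT4 (0.37 ± 0.053) rose with adjusted p of at most 4.38e-06. Of the higher members 2 of the 12 in the ATF4 list and 2 of the 10 chaperones lie on chromosome arm 2p, whose genes were higher as a whole, as did 129 of the 1039 higher genes in all.

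Targets of NRF2, the transcription factor of the antioxidant response, were split, with 8 of 24 higher and 5 lower (54.2% called, median -0.03). FTL, SLC7A11 and the quinone reductase NQO1 (0.38 ± 0.059, adjusted p = 5.65e-06) were among those that rose. The aldo-keto reductase AKR1C3 (-0.72 ± 0.14, adjusted p = 0.000155) was among those that fell and has near-identical relatives that can share its reads. Among 23 tested drug efflux transporters and CYP1 enzymes 2 rose and 7 fell (39.1% called, median -0.25). ABCG2, the breast cancer resistance protein, had 11.8, 11.3 and 9 CPM in fusion, 20.1, 19.5 and 25.9 CPM in slippage and 22.7, 29.4 and 23.3 CPM in control (fusion over slippage -1.02 ± 0.18, adjusted p = 3.23e-05), and the hormone-metabolising enzyme CYP1B1 fell by 0.36 on the log2 scale (adjusted p = 6.51e-05).

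The glycolytic genes that were called were higher in fusion. Of 22 tested 6 rose and 0 fell (27.3% called, against 17.1% of all genes), although the median was small (0.05, and -0.03 on log2(TPM + 1)). Of the 6 higher genes 2 lie on the 3 arms of highest median, as do 246 of the 1039 higher genes in all. ENO1 lies in the first 10 Mb of chromosome 1, described below, where 34 of 76 genes were higher. Enolase, ENO1, had 1141, 1099 and 1102 CPM in fusion and 754, 777 and 698 CPM in slippage (0.58 ± 0.045, adjusted p = 2.78e-13). PGK1, which makes ATP in the same pathway, had 401, 394 and 374 CPM in fusion, 286, 297 and 309 CPM in slippage and 229.5, 244 and 239.7 CPM in control (fusion over slippage 0.39 ± 0.053, adjusted p = 4.51e-07). The glucose transporter SLC2A1 (0.27 ± 0.05) and lactate dehydrogenase LDHA (0.15 ± 0.039) rose by less, and neither was called on log2(TPM + 1) (adjusted p of 0.0837 and 0.511). Of 21 hypoxia targets 5 rose and 3 fell (38.1% called, median 0.19). The stress-responsive NDRG1 had 214, 238 and 241 CPM in fusion and 160.1, 159 and 160.3 CPM in slippage (0.53 ± 0.064, adjusted p = 3.54e-08), and the mitophagy receptor BNIP3 rose by 0.41 (adjusted p = 3.03e-06). Carbonic anhydrase CA12 moved the other way, at 7.54, 10 and 11.2 CPM in fusion and 22.5, 21.1 and 18.9 CPM in slippage (-1.11 ± 0.18, adjusted p = 9.97e-06).

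Lipid synthesis lists held about the share of calls of all genes (17.1%), and the mitochondrial list held fewer. In cholesterol synthesis 4 of 25 rose and 1 fell (20% called), with EBP (0.30 ± 0.066, adjusted p = 0.00105) the member of smallest p, and in fatty acid synthesis and desaturation 2 of 23 rose and 2 fell (17.4% called), with the polyunsaturated acyl-CoA synthetase ACSL4 (0.51 ± 0.068) and the phosphatase LPIN1 (0.55 ± 0.11) higher and the elongase ELOVL7 (-1.71 ± 0.40) lower. LPIN1 missed the threshold on log2(TPM + 1) (adjusted p = 0.055). LPIN1 lies on 2p and ACSL4 on Xq, 2 of the 3 arms of highest median (2p, 8q and Xq). Of 56 nuclear genes of oxidative phosphorylation 4 rose and 1 fell, 8.93% called. Of the 4 higher ones 3 lie on those 3 arms, as do 246 of the 1039 higher genes in all. CYC1 of complex III rose (0.26 ± 0.056), a call lost on log2(TPM + 1) (adjusted p = 0.0592). Lysosome and autophagy genes gave 3 higher and 7 lower of 29 (34.5% called). Among the lower ones were the hexosaminidase subunit HEXA (-0.61 ± 0.15) and the proton pump subunit ATP6AP1 (-0.50 ± 0.10).

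The lists of mitosis, DNA replication and centrosome genes had 16.7% to 24% of their members called, against 17.1% of all genes, and most of the called members were higher in fusion. The mitosis and spindle list had 9 of 46 tested members higher and 1 lower (21.7% called, median 0.03, and -0.06 on log2(TPM + 1)). HMMR, which organises spindle poles, had 34.4, 41.7 and 36.3 CPM in fusion and 17.3, 27.1 and 20.5 CPM in slippage (0.78 ± 0.14, adjusted p = 6.17e-05). The checkpoint protein BUB3 (0.26 ± 0.052), securin PTTG1 (0.27 ± 0.062) and the chromokinesin KIF4A (0.32 ± 0.074) rose by less, and these 3 were not called on log2(TPM + 1) (adjusted p from 0.0752 to 0.405). Of 42 DNA replication genes 7 rose and 0 fell (16.7% called, median 0.10, and 0.0025 on log2(TPM + 1)). GINS4 of the replicative helicase had 51.8, 51.7 and 41.6 CPM in fusion and 24, 31.8 and 26.8 CPM in slippage (0.80 ± 0.13, adjusted p = 3.24e-05), and the ribonucleotide reductase subunit RRM2, encoded on arm 2p, rose by 0.38 (adjusted p = 1.17e-06). Of 25 centriole and centrosome genes 4 rose and 2 fell (24% called). PLK4, the kinase that starts centriole duplication, had 22.3, 26.8 and 23.9 CPM in fusion and 15.8, 18.2 and 15 CPM in slippage (0.57 ± 0.15, adjusted p = 0.00493), and pericentrin, PCNT, rose by 0.57 (adjusted p = 3.67e-05).

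CDKN1A, which encodes p21 and is a target of p53, had 101, 97 and 93.1 CPM in fusion, 147, 141 and 139.6 CPM in slippage and 93.6, 92.9 and 89.1 CPM in control (fusion over slippage -0.55 ± 0.068, adjusted p = 6.54e-08). Slippage stood above both other populations, by 0.63 ± 0.068 over control (adjusted p = 1.44e-08), whereas fusion lay 0.08 ± 0.072 from control (adjusted p = 0.495). Of 23 tested p53 targets 1 rose and CDKN1A alone fell, 8.70% called against the 17.1% of all genes. Among 21 G1 cyclins, their kinases and inhibitors 2 rose, CCND2 and the kinase CDK6 (0.54 ± 0.094, adjusted p = 0.000221), and 3 fell (23.8% called). Cyclin E1, CCNE1, had 12.1, 14.9 and 11.8 CPM in fusion and 21, 19.5 and 17.8 CPM in slippage (-0.58 ± 0.16, adjusted p = 0.00973), a call lost with DESeq2 and without fusion replicate 3 (adjusted p of 0.0619 and 0.0559). The kinesin KIF18A, on which doubled cells have been reported to depend, had 56.1, 62.1 and 63.3 CPM in fusion and 43.8, 58.3 and 54.5 CPM in slippage and was not called (0.21 ± 0.10, adjusted p = 0.162). MYC (0.18 ± 0.089), the Hippo kinase LATS2 (0.05 ± 0.12) and the kinesin KIFC1 (0.10 ± 0.11) were not called either (adjusted p from 0.169 to 0.817). CDKN2A was not among the genes tested.

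Targets of YAP and TAZ, the coactivators that the Hippo pathway restrains, were higher on balance, with 9 of 28 tested members higher and 2 lower (39.3% called, median 0.17). CRIM1, a membrane protein that binds growth factors, had 263, 251 and 242 CPM in fusion, 158, 173 and 169 CPM in slippage and 232, 248 and 230.5 CPM in control (fusion over slippage 0.60 ± 0.063, adjusted p = 2.4e-09). CTGF, the classic target of the pair, had 230.2, 228 and 208 CPM in fusion and 179.9, 179 and 176 CPM in slippage, against 230, 235 and 224 CPM in control (0.31 ± 0.059, adjusted p = 0.000127). For both genes slippage was the group below control, while fusion and control lay close. The receptor tyrosine kinase AXL (0.44 ± 0.051) and the RhoGAP DLC1 (0.47 ± 0.07) rose too. Of 23 immediate early and ERK feedback genes 4 rose and 0 fell (17.4% called, near the 17.1% of all genes), with a median of 0.06 that was -0.03 on log2(TPM + 1). They were led by the AP-1 subunit FOSL1, at 276, 277 and 267 CPM in fusion and 219, 222 and 176 CPM in slippage (0.41 ± 0.065, adjusted p = 9.78e-06), and the ERK phosphatase DUSP5 (0.52 ± 0.09). The other 2 were the ERK pathway inhibitors SPRY2 (0.32 ± 0.12), whose call was lost in 10 of 16 other settings, and SPRY4 (0.34 ± 0.11), whose call was lost in 9 of them.

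Among 30 actin cytoskeleton and contractility genes 3 rose and 5 fell (26.7% called). Non-muscle myosin MYH10 had 21.3, 24.9 and 32.3 CPM in fusion and 49.8, 47.9 and 52.6 CPM in slippage (-0.93 ± 0.12, adjusted p = 2e-07), and its light chain relative MYL9 fell by 0.74 (adjusted p = 2.64e-05). Of 16 tubulins and microtubule-binding proteins 1 rose and 2 fell (18.75% called, near the 17.1% of all genes). The neuronal TUBB3 fell by 0.35 on the log2 scale (adjusted p = 0.00036). The calls of the alpha tubulins TUBA1B (0.17 ± 0.055) and TUBA1A (-0.15 ± 0.054) were lost in 9 and 11 of 16 other settings, the replicate block among them (adjusted p = 0.0619 for TUBA1B and 0.0625 for TUBA1A). A list of cancer-testis antigens and related MAGED genes, which leaves out the SPANX genes, had 5 tested members, MAGED1, MAGED2 and MAGED4 among them. Of these members 0 rose and 2 fell (40% called). The lower ones were PAGE5, at 1.31, 0.608 and 0.62 CPM in fusion and 9.42, 6.25 and 9.03 CPM in slippage (-3.23 ± 0.42, adjusted p = 1.89e-07), and MAGED1 (-0.53 ± 0.10). MAGED4 was at 0 in all 3 fusion libraries and at 3.95, 5.47 and 1.2 CPM in slippage, without a call (adjusted p = 0.163).

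**Figure D2:**
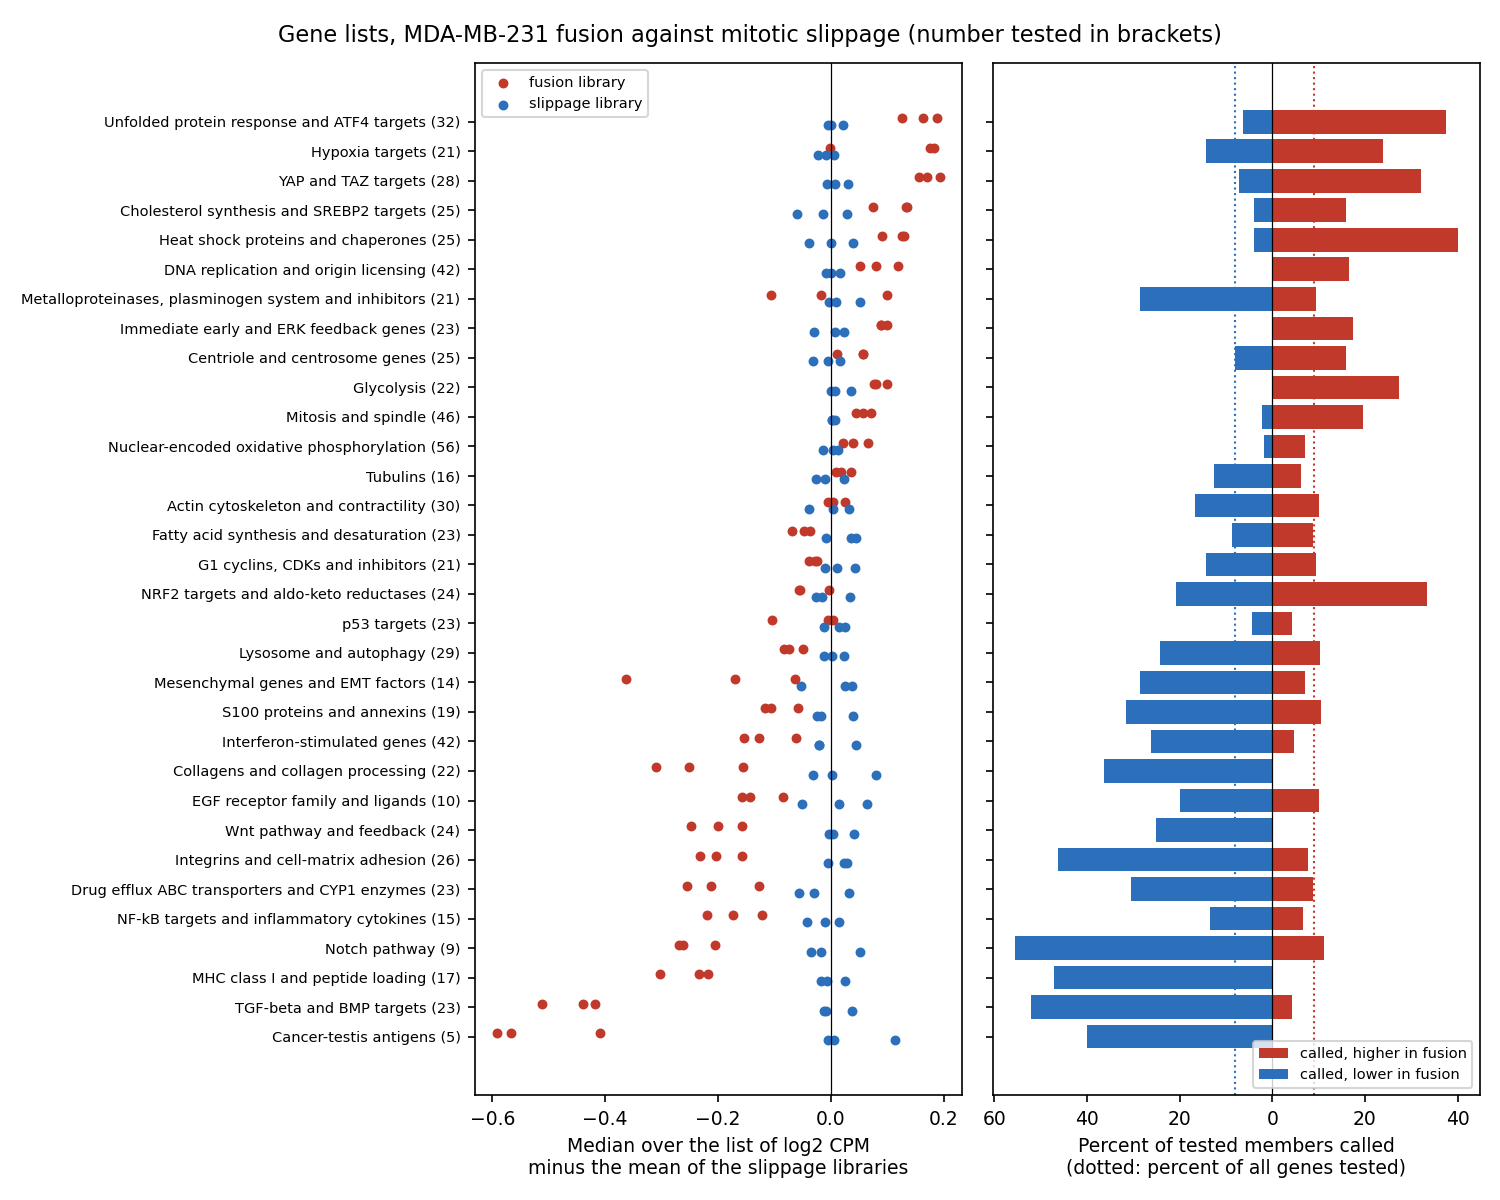
Left, for each gene list, the median over its tested members of log2 CPM minus the mean of the slippage libraries, in each fusion (red) and slippage (blue) library; right, the percent of tested members called higher (red, to the right) or lower (blue, to the left) in fusion, with dotted lines at the 9.09% and 8.0% of all genes tested. The cancer-testis antigen list, which holds MAGED genes too (5 genes, median -0.53, and -0.29 on the 6 fusion and slippage libraries alone), TGF-beta and BMP targets (median -0.49) and MHC class I genes (-0.29) lie at the low end and ATF4 targets (0.21) at the high end.

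The direction of change differed along the genome. Genes were assigned to chromosome arms from RefSeq positions on GRCh38.p14, which placed 97.7% of the genes tested. Among arms with at least 20 tested genes 2p had the highest median, with 129 of 305 tested genes higher and 7 lower (median 0.30). The median of the arm, relative to the mean of slippage, was 0.28, 0.29 and 0.29 in the fusion libraries and 0.00, -0.01 and 0.01 in the slippage libraries. Against the controls 2p lay at 0.29 in fusion and -0.03 in slippage, values that share the control libraries. RTN4, which shapes the endoplasmic reticulum, had 1086, 1056 and 1039 CPM in fusion and 788, 751 and 769 CPM in slippage (0.46 ± 0.042, adjusted p = 4.56e-11), and the transmembrane protein gene TMEM18 near the tip of the arm had 147, 131 and 133 CPM in fusion and 79.3, 81 and 77.9 CPM in slippage (0.78 ± 0.071, adjusted p = 4.08e-11). The ubiquitin fusion gene RPS27A (0.47 ± 0.043) and the phosphatase PPM1G (0.52 ± 0.055) of the same arm rose as well. The long arm of the chromosome did not follow, with a median of -0.01 over 443 genes.

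Arm 8q had 59 of 257 genes higher and 5 lower (median 0.15), but there fusion was level with control (0.00) and slippage lay below it (-0.13). The poly(A)-binding protein PABPC1 of 8q had 1335, 1302 and 1250 CPM in fusion, 1009, 1015 and 1016 CPM in slippage and 1180, 1218 and 1145 CPM in control (fusion over slippage 0.35 ± 0.045, adjusted p = 1.3e-07). On Xq 58 of 206 genes were higher and 22 lower (median 0.15), with both populations above control, fusion by 0.34 and slippage by 0.13. The adenine nucleotide carrier SLC25A5 (0.47 ± 0.057) and the microtubule-associated MAP7D3 (0.67 ± 0.066) rose there. A stretch at the end of Xq, given below, ran the other way. At the low end, 18q had 2 of 122 genes higher and 29 lower (median -0.22), 20p 2 of 106 higher and 28 lower (-0.21) and 15q 7 of 354 higher and 60 lower (-0.17). Named members were the myelin basic protein gene MBP (-0.56 ± 0.064) and the BH3-only gene PMAIP1 (-0.42 ± 0.066) on 18q, the cystatin CST1 (-1.44 ± 0.10) and the actin-depolymerising DSTN (-0.39 ± 0.046) on 20p, and C15orf48 (-0.79 ± 0.12) on 15q. The 3 highest arms hold 246 of the 1039 higher calls and the 3 lowest 117 of the 914 lower calls. On log2(TPM + 1) the medians of 2p, 8q and Xq were 0.19, 0.04 and 0.05, and those of 18q, 20p and 15q -0.20, -0.28 and -0.21. DNA copy number is not analysed here, and its part in these shifts was not tested.

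**Figure D3:**
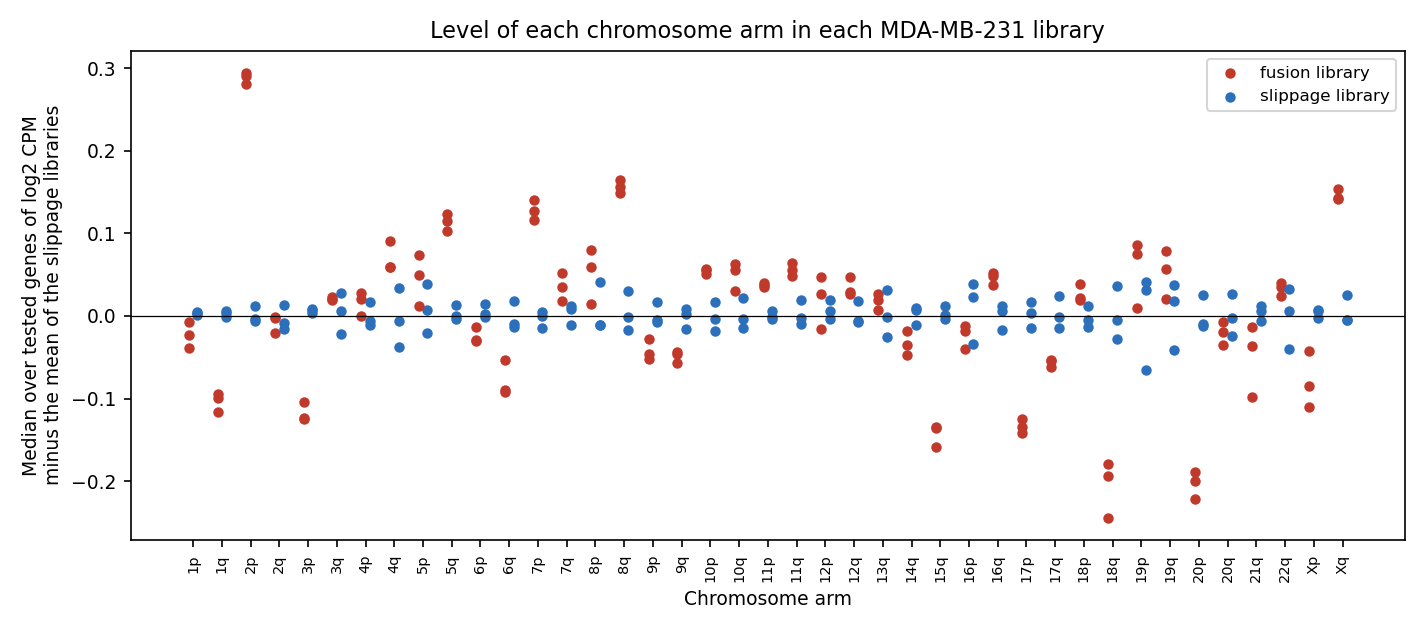
Median over the tested genes of each chromosome arm (horizontal axis) of log2 CPM minus the mean of the slippage libraries (vertical axis), in each fusion (red) and slippage (blue) library. The fusion libraries of 2p lie at 0.28, 0.29 and 0.29, above those of every other arm drawn, and those of 18q and 20p lie lowest, while the slippage libraries lie around 0 by construction.

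A shorter stretch stood out inside an arm that was level as a whole. Windows of 10 Mb with at least 20 tested genes, drawn after the arms had been seen, numbered 223, and the first of chromosome 1, chr1:1-10000000, had 34 of 76 genes higher and 1 lower (median 0.39), although 1p in all had a median of -0.03. ENO1 and ERRFI1 lie in it. So do PARK7, a redox-sensing chaperone, at 336, 318 and 319.5 CPM in fusion and 237, 222 and 236 CPM in slippage (0.49 ± 0.056, adjusted p = 1.45e-08), and RPL22, a ribosomal protein, at 1303, 1318 and 1292 CPM in fusion and 972, 921 and 934 CPM in slippage (0.47 ± 0.041, adjusted p = 1.6e-11). Against the controls the window was at 0.36 in fusion and -0.03 in slippage. The lowest window was chr20:10000001-20000000, with 0 of 26 genes higher and 12 lower (median -0.37, fusion at -0.32 and slippage at 0.04 against control). Xq was not uniform. Its window chrX:150000001-160000000 had 0 of 47 genes higher and 16 lower (median -0.20). Against control that window was at -0.20 in fusion and 0.03 in slippage. The Xq windows starting at 70000001, 100000001, 110000001 and 130000001 had medians of 0.28, 0.17, 0.25 and 0.27.

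The same routes in HCC1806 gave mostly other calls. There 1058 of 11467 genes (9.23%) were called, 482 higher and 576 lower in fusion. Of 10369 genes tested in both lines, 1774 were called in MDA-MB-231 and 945 in HCC1806, and 267 in both. Of these, 122 had the same direction (76 higher and 46 lower), which is 6.88% of the MDA-MB-231 calls and 12.9% of the HCC1806 calls, and 145 had opposite directions. In 1 fit of all 24 libraries the fusion over slippage change differed between the lines for 1404 of 12563 genes (11.2%), 804 with the MDA-MB-231 change above that of HCC1806 and 600 below. HLA-B, at -0.96 in MDA-MB-231 and 0.13 ± 0.058 in HCC1806, differed by -1.08 ± 0.079 (adjusted p = 4.14e-19). MDK differed by -1.48 ± 0.11 (adjusted p = 6.4e-19) and S100A2, which rose in HCC1806 (0.35 ± 0.03), by -0.99 ± 0.055 (adjusted p = 6.56e-26). MMP1 rose in both lines, by 1.75 in MDA-MB-231 and 1.20 ± 0.078 in HCC1806, and THBS1 (-0.49 and -0.46 ± 0.045) and WNT5A (-2.43 and -1.59 ± 0.37) fell in both. FBN1 fell in HCC1806 as well (-1.08 ± 0.24). For these 4 genes the difference between the lines was not called (adjusted p from 0.133 to 0.931).

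The distal window of chromosome 1 ran in opposite directions. Of its 73 genes tested in HCC1806, 1 was higher and 24 were lower in fusion (median -0.20), against 34 higher and 1 lower of 76 in MDA-MB-231. ENO1 differed between the lines by 0.81 ± 0.056 (adjusted p = 2.44e-20), PARK7 by 0.78 ± 0.071 (adjusted p = 2.07e-14) and ERRFI1 by 1.39 ± 0.15 (adjusted p = 1.67e-11), each higher in fusion in MDA-MB-231 and lower in HCC1806. Arm 2p had a median of -0.10 in HCC1806, with 6 of 287 genes higher and 41 lower. Of the low arms named above, 15q and 20p were low in HCC1806 too, while 18q was not (median 0.02). HCC1806 had 3 of 328 genes higher and 56 lower on 15q (median -0.10). On 20p it had 0 of 94 higher and 13 lower (median -0.11). Along 15q, the windows starting at 30000001 through 90000001 had HCC1806 medians of -0.205, -0.24, -0.26, -0.03, 0.02, 0.01 and 0.05. The MDA-MB-231 medians of these windows were -0.16, -0.15, -0.12, -0.18, -0.22, -0.19 and -0.14.

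**Figure D4:**
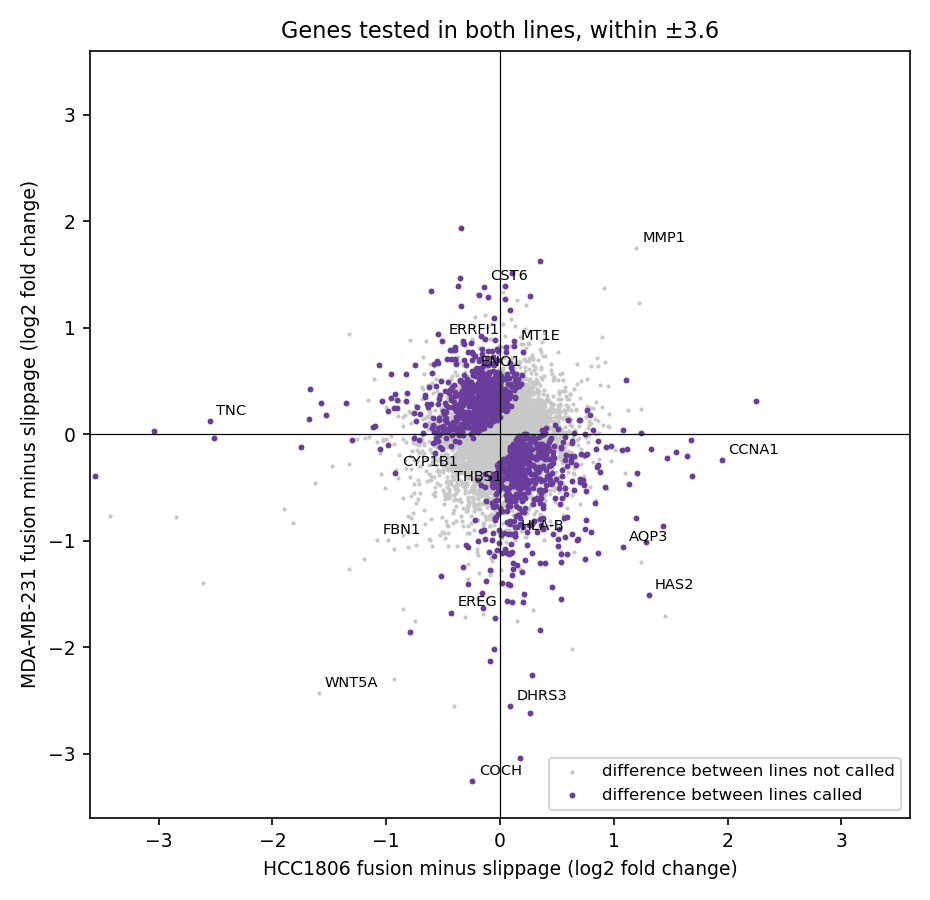
Log2 fold change of fusion over slippage in MDA-MB-231 (vertical axis) against that in HCC1806 (horizontal axis) for 10369 genes tested in both lines; purple points are genes whose change differed between the lines in the fit of 24 libraries. MMP1 lies at the upper right and FBN1 at the lower left, HAS2 and AQP3 lie at the lower right, and ENO1 and ERRFI1 at the upper left; 7 genes beyond ±3.6 are not drawn.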

How the data were processed

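TAGseq of 24 libraries was aligned and quantified by the authors with STAR and Salmon (no versions) on GRCh38, per the submitters' processing notes. Annotation, strand and molecular identifiers are not given in the sources used here. The authors deposited estimated counts per gene (4.41% not whole) and TPM. Rounded estimated counts of the 12 MDA-MB-231 libraries in 4 groups of 3 went into edgeR 4.0.16 (R 4.3.3) with filterByExpr at a minimum count of 10, TMM factors and robust quasi-likelihood F-tests. HCC1806 was fitted likewise, and the line difference on all 24. A call is a Benjamini-Hochberg adjusted p below 0.05 over all genes tested. Standard errors are the fold change divided by the root of F. P-values measure the spread between replicate libraries, which may be technical. Chromosome arms were split at approximate centromere positions.

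Named genes are the 12 largest changes and 6 smallest p-values per direction, up to 4 members of smallest p per list, 9 regulators, 6 line differences per direction and up to 4 genes in each of 3 arms per end. The comparison, its members and the lists were chosen with earlier results of these data known. MHC class II genes, metallothioneins, trefoil factors with cystatins, the 10 Mb windows, PARK7, RPL22 and genes of few counts were chosen after their values were seen. In a simulation of fusion against slippage (11287 genes) the test found 52 of 100 genes altered by 0.5 log2 and 85 of 100 altered by 1, beside 10 false calls. For the line difference (12133 genes) it found 70 of 100, beside 5 false calls. Alternatives were DESeq2 1.42.0, RLE factors, limma 3.58.1 on log2(TPM + 1) and log2(TPM + 0.1), other filters, a minimum change of 0.5, fewer libraries and a replicate block. Low-pass genome sequencing was not analysed here, and some genes that the rule selects are not reported here.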

Additional observations from a re-analysis of the deposited data

Results flagged for a closer look

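The change from slippage to fusion differed between MDA-MB-231 and HCC1806, by a test of the difference itself in 1 edgeR fit of all 24 libraries, for 1404 of 12563 genes. Genes among the 6 of largest difference in each direction (with mean levels of 2 log2 CPM or more in both) are given here as MDA-MB-231 change minus HCC1806 change on the log2 scale.

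Among the positive differences given, the HCC1806 change was called for all but CAB39L, and the MDA-MB-231 change for none in the main fit. Without slippage replicate 3, with or without cytokinesis failure replicate 1, the MDA-MB-231 change of BASP1 was called (adjusted p from 0.00334 to 0.00933). That of CAB39L was called without fusion replicate 2 (adjusted p = 0.0357). The matrix glycoprotein tenascin-C, TNC, had 10.7, 16.6 and 12.5 CPM in MDA-MB-231 fusion and 10.7, 11.7 and 14.1 CPM in MDA-MB-231 slippage, against 1.23, 1.21 and 1.27 CPM in HCC1806 fusion and 6.84, 6.64 and 8.71 CPM in HCC1806 slippage, a difference of 2.68 (adjusted p = 1.46e-06). Smaller positive differences were those of the membrane-associated BASP1, at 1.83 (adjusted p = 5.85e-11), CAB39L, at 1.71 (adjusted p = 0.00596), SAMD12, at 1.71 (adjusted p = 0.00296) and the cytokine receptor LIFR, at 1.64 (adjusted p = 0.000926).

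Negative differences were of several kinds. COCH, cochlin, had 0.627, 0.583 and 0.593 CPM in MDA-MB-231 fusion and 4.92, 5.96 and 7.19 CPM in MDA-MB-231 slippage, against 17.9, 14 and 12.1 CPM in HCC1806 fusion and 19.1, 14.6 and 18 CPM in HCC1806 slippage (difference -3.01, adjusted p = 4.36e-06). The retinal reductase DHRS3 (-2.64, adjusted p = 4.59e-07) likewise changed in MDA-MB-231, at -2.55, and was not called in HCC1806. The hyaluronan synthase HAS2 had 3.14, 5.83 and 5.64 CPM in MDA-MB-231 fusion and 13.3, 14.4 and 14.1 CPM in MDA-MB-231 slippage, against 44.6, 48.6 and 48.6 CPM in HCC1806 fusion and 20.2, 16.3 and 20.4 CPM in HCC1806 slippage (difference -2.81, adjusted p = 3.87e-14), called in opposite directions. The aquaporin AQP3 (-2.13, adjusted p = 5.81e-14) and the centriole gene RTTN (-2.30, adjusted p = 1.96e-05) were also lower in MDA-MB-231 fusion and higher in HCC1806 fusion; without fusion replicate 2 or 3 or slippage replicate 2, with DESeq2 and on either TPM scale the MDA-MB-231 call of RTTN was lost. The cyclin CCNA1 (-2.19, adjusted p = 1.35e-09) rose in HCC1806 fusion by 1.95 and was not called in MDA-MB-231.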

How the results depend on the processing

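The count of 1953 genes was 1976 with RLE factors, 2054 with no filter, 1888 with a minimum count of 30, 1847 on the 6 libraries alone, 2114 without both noisier libraries (slippage replicate 3 and cytokinesis failure replicate 1), and 1472 to 1824 without 1 replicate, the lowest without fusion replicate 1. It was 1210 with DESeq2 and 112 (25 higher and 87 lower) against a minimum change of 0.5; the cause was not tested for DESeq2, while the second asks for larger changes by construction. On log2(TPM + 1) it was 1438 and on log2(TPM + 0.1) 1440 (296 higher and 1144 lower), and on log2(TPM + 1) the median of all genes fell by 0.0765. With the replicate block it was 1796, and that of the line difference 1316; same-numbered libraries correlated at 0.0243, -0.0585 and -0.0829 in their deviations, so the numbers do not pair the samples. The line difference stood at 1404 genes, and at 1195 to 1440 in all alternatives run. Of 3037 values of 191 named genes under alternatives, 2787 kept their side of the threshold, 237 lost a call, 13 gained one and 0 reversed; 32 genes lost their call in a setting other than the minimum change. Medians of 13 list values and 19 arm values changed sign, mostly on the TPM scale. Depth limits genes of few counts: the interval of the TMTC1 ratio ran from 0.00103 to 0.256.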

Other observations

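Several genes were nearly lost from 1 population, and were picked out after their values were seen. CADM1, an adhesion molecule of the immunoglobulin superfamily, had 75 counts summed over the fusion libraries and 3 over the slippage libraries, a ratio of 27.3 with a 95% exact binomial interval of 9.0 to 136 that covers counting error only (edgeR adjusted p = 3.31e-08). Its levels were 8.85, 7.91 and 6.83 CPM in fusion and 0.608, 0.26 and 0 CPM in slippage. In the other direction TMTC1, an endoplasmic reticulum mannosyltransferase, had 1 count in fusion and 26 in slippage (ratio 0.0421, interval 0.00103 to 0.256) and the RAS-like gene RASL10A had 1 and 23 (ratio 0.0475, interval 0.00115 to 0.293). The zinc finger repressor ZBTB7C had 0.984, 0 and 0.31 CPM in fusion and 6.38, 6.77 and 7.22 CPM in slippage, with controls at 4.02, 4.69 and 5.69 CPM (fusion over slippage -3.90 ± 0.49, adjusted p = 9.31e-08).

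Trefoil factors, secreted peptides of mucosal repair that are encoded side by side on chromosome 21, and cystatins, inhibitors of cysteine proteases, were grouped after TFF3, CST1 and CST6 had been named. Of 9 tested genes 1 rose and 6 fell (77.8% called, median -0.65). TFF2 had 9.84, 9.13 and 12.4 CPM in fusion, 27.4, 33.6 and 32.2 CPM in slippage and 16.1, 16.3 and 20.6 CPM in control (fusion over slippage -1.57 ± 0.17, adjusted p = 3.03e-09), with TFF1 (-1.06 ± 0.22) and TFF3 (-1.59 ± 0.25) in the same direction. CST1 had 32.5, 30.4 and 27 CPM in fusion, 83.9, 88.5 and 70.1 CPM in slippage and 73, 73.2 and 73.4 CPM in control (fusion over slippage -1.44 ± 0.10, adjusted p = 2.85e-14). Its neighbours CST2 (-0.65 ± 0.14) and CST4 (-0.47 ± 0.13), which are alike in sequence and can share reads, fell by less, while CST6, encoded on chromosome arm 11q, rose (1.39 ± 0.18).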
